A study of Mus musculus with 4 samples.

Results

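Immediate early genes are transcribed within minutes of a signal without new protein synthesis, and 10 of them were followed in splenic B220+ B cells of mice with and without NSD1. They were taken by gene symbol from the 55401 genes listed in the deposited counts: Fos, Fosb, Jun, Junb and Jund of the AP-1 family, Egr1 and Egr3, Nr4a1, Ier2 and Myc. Each symbol matched 1 listed gene. The 4 libraries compared were 2 from NSD1B WT mice (Mb1-Cre+ NSD1+/+) and 2 from NSD1B KO mice (Mb1-Cre+ NSD1fl/fl), so that both groups carry the Cre driven from the Mb1 (CD79a) gene, which is active from early stages of the B lineage. All mice were C57BL/6J, and the methods give littermate controls and mice of both sexes aged 7 to 9 weeks for the experiments in general. The floxed allele flanks exons 6 to 8 of Nsd1, which encodes a histone H3 lysine 36 methyltransferase. Cells were sorted to a stated purity above 98%, and nothing in the sources tells if both libraries of 1 genotype came from different mice, so p-values measure the spread between libraries, which may be technical.

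FOS and JUN proteins pair through leucine zippers to form AP-1, EGR proteins are zinc finger factors, and NR4A1 (Nur77) is an orphan nuclear receptor. In B cells these genes respond to the antigen receptor through calcium and the ERK and JNK kinases, and Nr4a1 is widely used as a reporter of recent receptor signalling. MYC drives cell growth and follows the same signals. The same genes are also induced when tissue is cut, digested or held warm, so their level in sorted cells carries the history of the sort as well as that of the animal. The comparison asked how their mRNA differed between B cells with and without NSD1, and how heat shock and other early response genes, which respond to handling too, moved beside them.

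The libraries held 6769118 to 7566834 counts on genes, and 39373 of the listed genes (71.1%) had no count in any library. Mitochondrial genes took 7.14% and 7.90% of the counts in NSD1B WT and 8.98% and 9.27% in NSD1B KO. Nsd1 itself had 497 and 480 counts in NSD1B WT and 284 and 280 in NSD1B KO (log2 fold change -0.74, standard error (SE) 0.11, edgeR adjusted p = 8.22e-08), in counts over the whole gene of which the floxed exons are a small part. The 10 B cell markers, among them Cd79a and Ms4a1, were all counted and summed to 50439 to 50551 TMM-scaled counts per 1e6 (CPM) in NSD1B WT and 40794 to 41490 in NSD1B KO. Most of this sum was Cd74, which averaged 37638 CPM in NSD1B WT and 29369 in NSD1B KO. Cd79b, the next largest, averaged 6817 and 8149 CPM, a rise short of the 1.2-fold limit used below. Of these 10 markers 7 were lower and 1, Ebf1, was higher in NSD1B KO. Cd79a fell from 14544 and 14192 counts to 5831 and 5166, and Pax5, the factor that maintains B cell identity, from 279 and 342 to 30 and 31. Markers of other cells were also present, and the summed levels were higher in NSD1B KO for each list but that of plasma cells. Erythroid markers summed to 35.5 to 39.6 CPM in NSD1B WT and 1688 to 1942 in NSD1B KO, with 5 of 6 markers higher. Myeloid markers, led by Lyz2 and with 5 of 8 higher and 2 lower, summed to 4564 to 4668 and 5727 to 6075, and T cell markers to 47.0 to 50.3 and 70.4 to 74.3, with 3 of 8 higher, 2 lower and Cd4 and Cd8a at 0. NK cell markers summed to 56.5 to 59.8 and 96.4 to 98.4 CPM, with 3 of 6 higher, 1 (Klrb1c) lower and Ncr1 and Gzma at 0. Platelet markers summed to 154 to 167 and 223 to 231, of which Pf4 alone was counted, and plasmacytoid dendritic cell markers to 140 to 141 and 211 to 219, with 2 of 5 higher and Siglech and Cox6a2 at 0. Plasma cell markers summed to 216 to 231 and 169 to 174, with 2 of 5 lower, 1 (Prdm1) higher and Sdc1 and Tnfrsf17 at 0. Of the 6 stromal and endothelial markers, summing to 68.9 to 76.2 and 80.2 to 91.2, only Pecam1 was counted. In bulk samples fewer cells of a type and less RNA per cell cannot be told apart, and the part of these cells in the values below was not tested.

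The members differ among themselves in gene structure and in sequence elements. They span from 1522 bp (Ier2) to 20527 bp (Nr4a1) with a median of 4609.5 bp, against a median of 23730 bp for the 9282 protein-coding genes tested between genotypes. The genes Jun, Junb, Jund and Ier2 have a single exon, as do 2.28% of the tested protein-coding genes. The GC content of the principal transcript was above 60% in Junb, Jund and Ier2, a level that 3.26% of tested protein-coding genes reached. AU-rich elements in the 3' untranslated region speed mRNA decay, and their core, the pentamer ATTTA, was found in 9 of the 10 members, all but Ier2, and in 68.9% of 9209 tested protein-coding genes with an annotated 3' untranslated region. Per kb of that region the members held a median of 2.95 of these pentamers, and the tested genes 1.34. Nr4a1 (5.52), Fos (4.91), Myc (4.52), Junb (4.12), Jun (3.24) and Egr3 (2.65) were well above the latter, Jund (1.88) and Egr1 (1.64) were closer to it, and Fosb (0.466) was below it. The longer TTATTTATT was found once, in Fos, and in 7.26% of the tested genes. These are descriptions of the annotated sequence, not measurements of decay.

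The promoters of 4 members are shown, 2 of members counted in all 4 libraries (Fos and Junb) and 2 of members with 0 or 1 count over NSD1B KO (Jun and Nr4a1). They were picked by these counts, and nothing about the difference is drawn from them. Each line gives the 250 bases before the RefSeq transcription start in GRCm38.p6, read in the direction of the gene. The regions are chr12:85473640-85473889 (plus strand) for Fos, chr8:84978749-84978998 (minus strand) for Junb, chr4:95052223-95052472 (minus strand) for Jun and chr15:101266596-101266845 (plus strand) for Nr4a1, which lies before an inner start of that gene. Capitals mark matches, on either strand, to the motifs that were searched.
Fos: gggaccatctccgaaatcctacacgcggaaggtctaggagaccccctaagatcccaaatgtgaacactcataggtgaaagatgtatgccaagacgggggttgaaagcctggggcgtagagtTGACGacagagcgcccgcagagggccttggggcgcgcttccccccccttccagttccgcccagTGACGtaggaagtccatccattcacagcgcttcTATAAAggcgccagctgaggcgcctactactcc
Junb: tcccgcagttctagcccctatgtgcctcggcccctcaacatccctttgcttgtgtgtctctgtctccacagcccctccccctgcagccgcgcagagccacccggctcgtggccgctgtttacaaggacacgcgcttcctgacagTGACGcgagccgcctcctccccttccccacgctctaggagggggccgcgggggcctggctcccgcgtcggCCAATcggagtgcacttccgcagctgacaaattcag
Jun: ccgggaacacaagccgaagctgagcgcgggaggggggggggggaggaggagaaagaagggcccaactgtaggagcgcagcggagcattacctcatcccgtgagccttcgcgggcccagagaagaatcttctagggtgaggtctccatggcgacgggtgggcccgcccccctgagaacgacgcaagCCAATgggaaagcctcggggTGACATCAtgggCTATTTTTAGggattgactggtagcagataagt
Nr4a1: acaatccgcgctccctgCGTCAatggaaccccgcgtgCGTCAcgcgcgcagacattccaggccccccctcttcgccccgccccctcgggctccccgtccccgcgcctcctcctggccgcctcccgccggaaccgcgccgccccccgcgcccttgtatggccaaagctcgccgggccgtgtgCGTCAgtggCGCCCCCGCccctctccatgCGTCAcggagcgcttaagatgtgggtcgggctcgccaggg
The motifs were the cyclic AMP response element TGACGTCA and its first bases TGACG, the variant TGACATCA known from the Jun promoter, the AP-1 site TGANTCA, the EGR site GCGNGGGCG, the TATA box TATAAA, the CCAAT box, the MEF2 box and the CArG box bound by SRF. Counting back from the start, Fos had TGACG at -129 to -125 and at -66 to -62, and TATAAA at -33 to -28. Nr4a1 had 4 matches to TGACG, each on the opposite strand, and 1 EGR site at -60 to -52. Junb had 1 TGACG at -106 to -102 and CCAAT at -36 to -32. Jun had no TGACG, but CCAAT at -65 to -61, TGACATCA at -45 to -38 and a MEF2 box at -33 to -24. Of the 32851 RefSeq promoters of this length, 17.8% held TGACG, 1.55% TGACGTCA, 2.93% TGACATCA, 6.75% the AP-1 site, 4.70% the EGR site, 12.4% TATAAA, 33.8% CCAAT, 0.508% a MEF2 box and 1.47% a CArG box. None of these 4 windows held the full TGACGTCA, the AP-1 site or a CArG box. Sequence further than 250 bases from the start was not searched, so sites there would be missed. Of the other 2 members with a RefSeq promoter, Fosb had TGACG at -60 to -56 and an EGR site at -50 to -42, and Jund had no match. The Jund window, chr8:70697489-70697738, does not adjoin the annotated gene start at 70698949, and the bases next to that start were not searched.

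Of the 10 members, 9 were counted in at least 1 library and 7 had enough counts to be tested. A gene was called where its Benjamini-Hochberg adjusted p in the edgeR quasi-likelihood fit over 11657 genes fell under 0.05 and it differed by more than 1.2-fold. By this measure 6 of these 7 were lower in NSD1B KO and 1, Junb, was higher. In that fit 78.2% of all tested genes passed the same threshold, 41.1% as lower and 37.1% as higher, so a changed member is not in itself unusual here. These were 4795 lower and 4323 higher genes, and with the trend of length and GC content removed the balance turned to 4026 lower and 5057 higher. Jun, Egr3 and Nr4a1 passed the filter on low counts only through their NSD1B WT libraries and had to differ. Genes with many counts in 1 genotype and 0 in the other were common in both directions, and whether such zeros come from the cells or from how the count files were made was not tested. The bounds given for such genes below are bounds on the deposited counts. In each of the 7 tested members the libraries of the genotypes did not overlap, as in 88.1% of all tested genes (46.2% with NSD1B KO below, 41.8% with NSD1B KO above). The summed level of the 10 members was 385 and 349 CPM in the NSD1B WT libraries and 129 and 123 in the NSD1B KO libraries, most of it Myc.

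**Figure D1:**
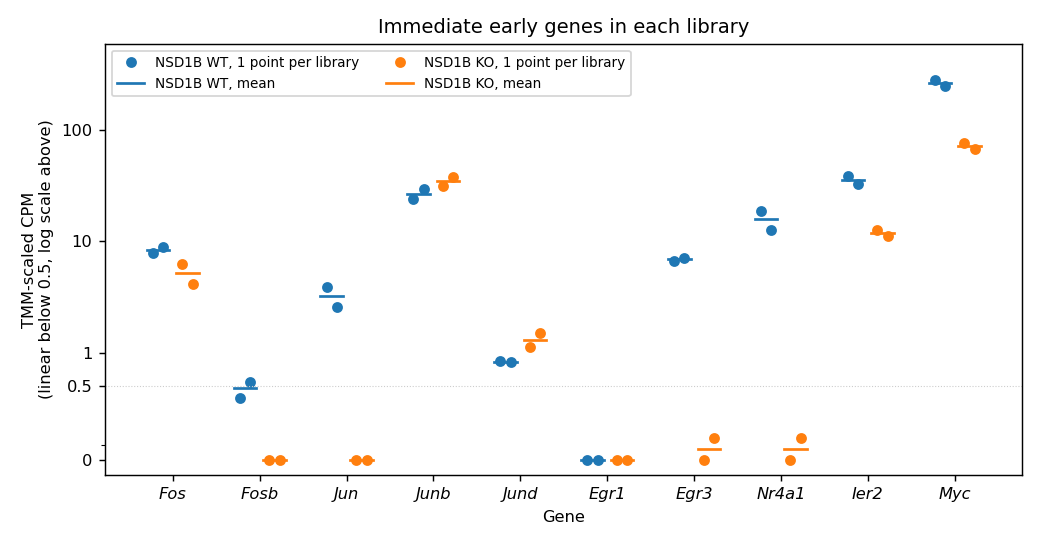
TMM-scaled CPM of the 10 members in each library (points, 2 libraries per genotype, blue NSD1B WT and orange NSD1B KO) with the mean of each genotype (line); the vertical axis is linear below 0.5 CPM and logarithmic above. Myc, Ier2, Fos, Jun, Egr3, Nr4a1 and Fosb lay lower in both NSD1B KO libraries, Junb and Jund lay higher, and Egr1 was at 0 throughout.

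Myc (chromosome 15, 61985391 to 61990374, plus strand, mm10) had the highest level of the members. It was counted 2027 and 1856 times in NSD1B WT and 555 and 455 times in NSD1B KO, or 283, 254, 77.04 and 67.6 CPM. Both NSD1B KO libraries were far below both NSD1B WT libraries, and the means were 268 ± 21.03 and 72.3 ± 6.70 CPM (mean ± SD, n = 2 libraries). The log2 fold change of NSD1B KO over NSD1B WT was -1.89 (SE 0.09, edgeR adjusted p = 1.75e-23), a 3.71-fold lower level. The difference was far larger than the gap between replicates, whose log2 ratio was 0.16 in NSD1B WT and 0.19 in NSD1B KO.

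Ier2 (chromosome 8, 84661331 to 84662852, minus strand), a small nuclear protein induced with Fos and Jun, moved in the same direction. It had 279 and 239 counts in NSD1B WT and 91 and 76 in NSD1B KO, which is 39.0, 32.7, 12.6 and 11.3 CPM. The libraries of the genotypes stood well apart, at 35.8 ± 4.49 and 11.96 ± 0.952 CPM (SD, n = 2 each). NSD1B KO over NSD1B WT gave -1.58 on the log2 scale (SE 0.17, edgeR adjusted p = 1.45e-11), or 2.99-fold lower. Myc and Ier2 stayed past the threshold under each alternative run.

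Nr4a1 (chromosome 15, 101254269 to 101274795, plus strand) had next to no counts in NSD1B KO. It was counted 135 and 93 times in NSD1B WT, or 18.9 and 12.7 CPM, and 0 times and once in NSD1B KO. The NSD1B WT libraries differed from each other (log2 ratio 0.57), but by far less than from NSD1B KO. With 228 counts over NSD1B WT against 1 over NSD1B KO, the scaled ratio was 220 with a 95% counting interval of 39.0 to 8711, which covers counting error only (edgeR adjusted p = 3.19e-16). Nr4a1 passed the filter on low counts only through NSD1B WT and had to differ, so this p-value is no support.

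Egr3 (chromosome 14, 70077203 to 70082614, plus strand), an EGR factor induced by antigen receptor signals, followed the same pattern. It had 48 and 52 counts in NSD1B WT, which is 6.71 and 7.11 CPM, and 0 and 1 in NSD1B KO. The NSD1B WT libraries were close to each other (log2 ratio -0.08). The ratio of NSD1B WT to NSD1B KO was 96.3 with a 95% counting interval of 16.9 to 3842 (edgeR adjusted p = 2.14e-11). Egr3 too passed the filter only through NSD1B WT and had to differ, so its p-value is no support. Egr1 (chromosome 18, 34859823 to 34864984, plus strand), the best known of the EGR factors, had 0 counts in all 4 libraries. A total of 3 counts over the 2 libraries of a genotype would be 0.207 CPM in NSD1B WT and 0.215 in NSD1B KO. These values are the bound used here for a gene at 0, not a limit of detection. Egr3 and Nr4a1 were each counted in NSD1B KO at a mean of 0.0742 CPM, below that bound.

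Jun (chromosome 4, 95049034 to 95052222, minus strand), the partner of FOS in the classical AP-1 dimer, was counted 28 and 19 times in NSD1B WT and 0 times in both NSD1B KO libraries. This is 3.91 and 2.60 CPM against 0. Taken against the limit of 3 counts over the NSD1B KO libraries, Jun was at least 15.1-fold lower (edgeR adjusted p = 7.36e-09). As with Nr4a1 and Egr3, the filter was passed only through NSD1B WT, so the p-value is no support. Fosb (chromosome 7, 19302696 to 19310051, minus strand) had 3 and 4 counts in NSD1B WT and 0 in NSD1B KO, at least 2.25-fold lower on so few counts, and it was too low to be tested. Of the 7 members with at least 40 counts over the NSD1B WT libraries, 3 (Jun, Egr3 and Nr4a1) had 0 or 1 count over NSD1B KO. Among all 9504 genes with that many NSD1B WT counts, 12.9% were so, and in the other direction 9.25% of 8934 genes. The limit of 40 counts was chosen after the values of the members had been seen.

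Fos (chromosome 12, 85473890 to 85477273, plus strand) was counted in all 4 libraries, unlike its partner Jun. It had 56 and 65 counts in NSD1B WT and 45 and 28 in NSD1B KO, or 7.83, 8.88, 6.25 and 4.16 CPM. The NSD1B KO libraries were both lower but differed from each other by 0.59 on the log2 scale. The log2 fold change was -0.68 (SE 0.30, edgeR adjusted p = 0.0346). This call was lost by DESeq2 (adjusted p = 0.192), by limma-voom (0.0700) and with the replicate number as a block (0.0537), and over the alternatives its adjusted p ran from 0.00901 to 0.460. It was also lost without NSD1B WT replicate 1 (log2 fold change -0.74, edgeR adjusted p = 0.0929), without NSD1B WT replicate 2 (-0.56, 0.222) and without NSD1B KO replicate 2 (-0.41, 0.238). With the trend of gene length and GC content removed, Fos was at -0.26 (edgeR adjusted p = 0.422) while the median of all tested genes moved from -0.10 to 0.17.

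Junb (chromosome 8, 84974484 to 84978718, minus strand), a JUN protein that can oppose JUN in AP-1, was the only tested member called higher. It was counted 173 and 217 times in NSD1B WT and 227 and 257 times in NSD1B KO, or 24.2, 29.7, 31.5 and 38.2 CPM. The highest NSD1B WT library lay just under the lowest NSD1B KO library. The log2 fold change was 0.37 (SE 0.15, edgeR adjusted p = 0.0214), a 1.29-fold higher level. The call was lost with libraries scaled by their size alone (edgeR adjusted p = 0.0641), by DESeq2 (0.116) and by limma-voom (0.101), and over the alternatives its adjusted p ran from 1.00e-06 to 0.193. It was lost too without NSD1B WT replicate 1 (log2 fold change 0.26, edgeR adjusted p = 0.163) and without NSD1B KO replicate 2 (0.23, 0.193), and without NSD1B WT replicate 2 it was 0.55. After removal of the trend with length and GC it was 0.80. Of the Junb exons 173 bp (7.52%) overlap Prdx2 on the opposite strand, a gene of 1858 to 2139 counts, and the strand setting of the counting is not given.

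Jund (chromosome 8, 70698949 to 70700616, plus strand), the JUN protein usually present in resting cells, had only 6 and 6 counts in NSD1B WT and 8 and 10 in NSD1B KO and was too low to be tested. Its 0.839 and 0.820 CPM in NSD1B WT lay below the 1.11 and 1.48 CPM in NSD1B KO. Of its exons 877 bp (52.6%) overlap Gm11175 on the opposite strand, which had 0 to 2 counts. Without strand, reads in such an overlap cannot be told apart, and the part of this in the low Jund counts was not tested. Jun overlaps the antisense gene Junos by 232 bp (7.28%), and Junos had no count.

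Scaled by exon length, the order of the members differed between genotypes. In NSD1B WT the level fell from Myc (98.8 CPM per kb) through Ier2 (23.5), Junb (11.7), Nr4a1 (4.50), Fos (3.55), Egr3 (1.57), Jun (1.02), Jund (0.497) and Fosb (0.0774) to Egr1 at 0. The libraries of Nr4a1 and Fos overlapped, and the other neighbours in this order did not. In NSD1B KO the order of levels was Myc (26.6 CPM per kb), Junb (15.1), Ier2 (7.86), Fos (2.21) and Jund (0.778), followed by Nr4a1 (0.0212) and Egr3 (0.0168), which overlapped, and by 3 genes at 0. Among JUN genes, Junb was thus the most abundant per length in both genotypes, ahead of Jun and Jund. The genes whose pattern over the 4 libraries was nearest to that of Fos were Mrfap1 (Euclidean distance of centred log2 CPM 0.174), Med6 (0.198) and Fam111a (0.202). With 4 libraries such likeness rests on few points.

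**Figure D2:**
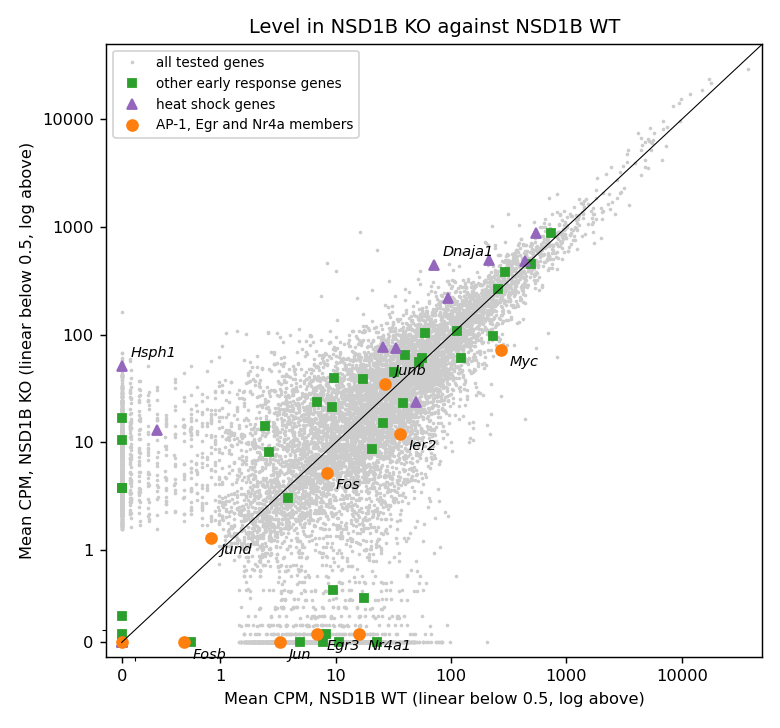
Mean TMM-scaled CPM in NSD1B KO (vertical) against NSD1B WT (horizontal) for all 11657 tested genes (grey), the 10 members (orange), other early response genes (green squares) and heat shock genes (purple triangles), 2 libraries per genotype, both axes linear below 0.5 CPM and logarithmic above, with the line of equal level. Myc and Ier2 lie below the line, Jun, Egr3 and Nr4a1 lie on the floor of the plot, Egr1 is the point at 0 on both axes, and Hsph1 and Dnaja1 lie above the line.

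The relatives of the members were split between the directions. Of 17 other AP-1 and bZIP genes, 12 were tested, and 5 were higher and 6 lower in NSD1B KO (median log2 fold change -0.80, against -0.10 for all tested genes). The share called was 91.7%, against 78.2% of all tested genes, which were themselves split (37.1% higher and 41.1% lower). Batf, an AP-1 factor needed for class switching, had 153 and 130 counts in NSD1B WT and 0 in NSD1B KO, at least 90.9-fold lower, and Maf was at least 20.5-fold lower on 31 and 33 counts. On the other side Fosl2 (Fra-2), a FOS relative, was counted 42 and 31 times in NSD1B WT and 207 and 194 times in NSD1B KO (log2 fold change 2.51, SE 0.22, edgeR adjusted p = 1.39e-14). Mafk, a small MAF protein, rose from 15 and 18 counts to 216 and 168 (3.58, edgeR adjusted p = 2.86e-17). Egr2, Egr4, Nr4a2 and Nr4a3 had no count in any library. The 2 EGR corepressors are the only tested genes of that list and were named after their values were seen. Nab2 was higher (3 and 11 counts against 63 and 58, log2 fold change 3.14, edgeR adjusted p = 4.06e-09) and Nab1 was not past the threshold (-0.09, edgeR adjusted p = 0.624).

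Other early response genes, 45 in the list, did not follow the members in 1 direction. Of the 33 that were tested, 14 were higher and 12 lower in NSD1B KO and 7 were not past the threshold (median log2 fold change 0.08). The share called was 78.8%, close to the 78.2% of all tested genes. Their summed level was 2730 and 2674 CPM in NSD1B WT and 2880 and 2733 in NSD1B KO. The genes without a count in NSD1B KO included Ppp1r15a (GADD34), a phosphatase subunit of the stress response, which had 155 and 174 counts in NSD1B WT and 0 in NSD1B KO, at least 106-fold lower. Gadd45g, Socs3 and Gadd45b were at least 49.4-, 36.0- and 22.8-fold lower in the same way, and Bhlhe40 fell from 117 and 135 counts to 0 and 5 (log2 fold change -5.53, edgeR adjusted p = 1.35e-15). In the list 4 tested genes were counted in NSD1B KO alone. They were the clock gene Per1 (122 and 111 counts, at least 80.6-fold higher), the NF-kB inhibitor Tnfaip3 (at least 50.5-fold), and Dusp5 and Ier5l (at least 18.3-fold each). Trib1 rose from 20 and 15 counts to 101 and 95 (2.53, edgeR adjusted p = 2.31e-10). Of the 5 genes of the list with the highest mean level in NSD1B WT, named after their values were seen, Btg1 rose by 0.38 on the log2 scale (edgeR adjusted p = 2.95e-05) and Nfkbia, an NF-kB inhibitor, fell by 1.23 (1.27e-17). The other 3 were not past the threshold, with a log2 fold change of 0.26 for the early activation antigen Cd69, -0.14 for Mcl1 and 0.04 for Klf2.

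Most of the tested heat shock genes moved against most of the members. Of 14 in the list, 10 were tested, and 8 were higher and 1 lower in NSD1B KO (median log2 fold change 1.23). The share called was 90%, against 78.2% of all tested genes, of which 37.1% were higher. Dnaja1, a co-chaperone of HSP70, was counted 535 and 493 times in NSD1B WT and 3348 and 2830 times in NSD1B KO (log2 fold change 2.64, SE 0.09, edgeR adjusted p = 2.52e-29). Dnajb1 rose by 1.60 (edgeR adjusted p = 2.33e-16) and Hspe1 by 1.23 (1.36e-17), and Hsph1, at 0 in NSD1B WT, had 404 and 314 counts in NSD1B KO, at least 248-fold higher. The 1 lower gene, named after its value was seen, was Hspd1, with 363 and 353 counts against 145 and 182 (-1.07, edgeR adjusted p = 2.72e-09). Hsp90ab1 was not past the threshold (0.15). Hspa1a and Hspa1b, the HSP70 genes most readily induced by heat, had no count in any library. They are near-identical copies and reads that were not unique (11.2% to 13.2%) were left out of the counts, so their 0 is uncertain. The summed level of the list was 1462 and 1465 CPM in NSD1B WT and 2894 and 2649 in NSD1B KO. No source gives the time from dissection to lysis or the day of each sort, and the part of handling in the levels of the members was not tested.

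**Figure D3:**
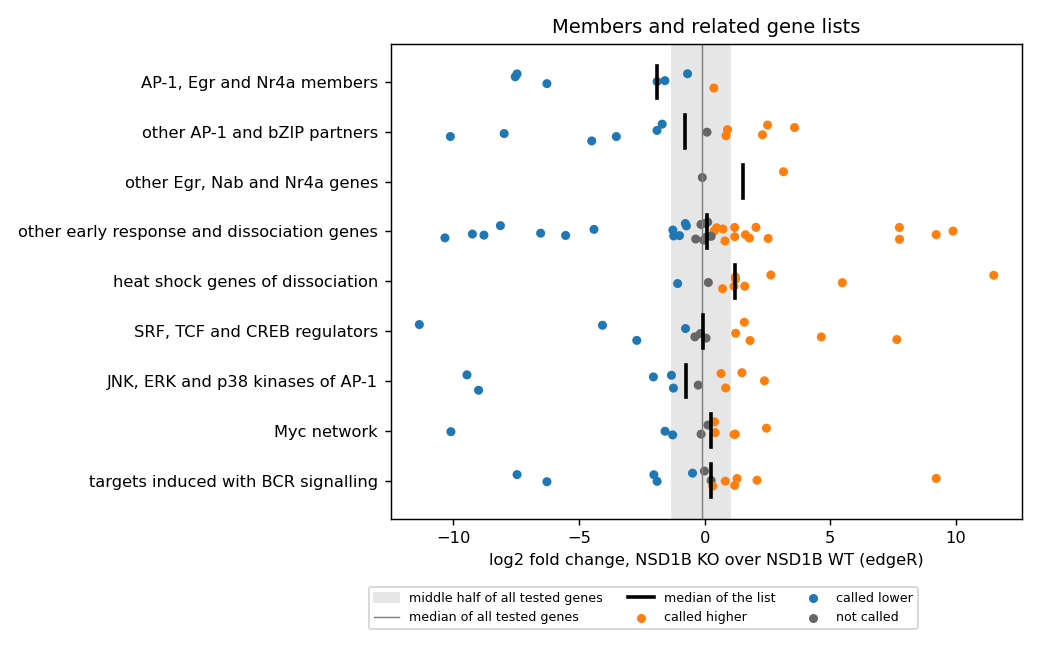
Log2 fold change of NSD1B KO over NSD1B WT for each tested gene (points) of the members and of 8 related lists, with the median of each list (black bar), the median of all tested genes (grey line) and their interquartile range (grey band). The list median was 0.08 for other early response genes and 1.23 for heat shock genes; fitted values beyond about 5 in size belong to genes with few or no counts in a genotype and are not measured folds.

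Regulators that act on the promoters of the members, or on the proteins, were likewise split. So were all tested genes, of which 78.2% were called, 37.1% as higher and 41.1% as lower. Of 12 tested SRF, ternary complex and CREB regulators, 5 were higher and 4 lower (75% called, median log2 fold change -0.05). Mrtfa, an SRF coactivator, had 349 and 318 counts in NSD1B WT and 0 in NSD1B KO, at least 214-fold lower, and Elk3, a ternary complex factor, fell from 276 and 249 counts to 15 and 15 (-4.06, edgeR adjusted p = 2.14e-20). Atf1, a CREB relative, and the coactivator Crebbp rose by 1.81 and 1.58 on the log2 scale (edgeR adjusted p = 1.93e-16 and 9.61e-16). Of the 10 kinases upstream of AP-1, 4 were higher and 5 lower (90% called, median -0.75). Mapk3 (ERK1) and Map2k4, a kinase of JNK, had 0 counts in NSD1B KO and were at least 57.5- and 41.7-fold lower, Rps6ka1 and Mapk8 (JNK1) fell by 2.04 and 1.32, and Rps6ka3 rose by 2.38. Around Myc, 10 genes of its network were tested, of which 5 were higher and 3 lower (80% called, median 0.26). Mxd1, which competes with MYC for MAX, was at least 89.6-fold lower, on 140 and 139 counts in NSD1B WT against 0. Mxd3 fell by 1.27 (edgeR adjusted p = 4.49e-11), and Mlx and Mga rose by 2.46 and 1.23 (edgeR adjusted p = 7.13e-17 and 4.03e-14).

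A list of 20 targets induced with antigen receptor signalling holds Egr1, Egr3, Nr4a1 and Myc together with genes outside the members. Of its 13 tested genes 6 were higher and 5 lower (median log2 fold change 0.26). The share called was 84.6%, against 78.2% of all tested genes. The costimulatory gene Cd86 rose from 488 and 470 counts to 2009 and 1916 (log2 fold change 2.09, SE 0.09, edgeR adjusted p = 1.39e-25), opposite to Myc, Nr4a1 and Egr3. Ebi3, a cytokine subunit, fell from 598 and 612 counts to 164 and 124 (-2.02, edgeR adjusted p = 1.15e-19). No stimulus is named for these cells, so the values are levels in sorted cells and not a response.

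**Figure D4:**
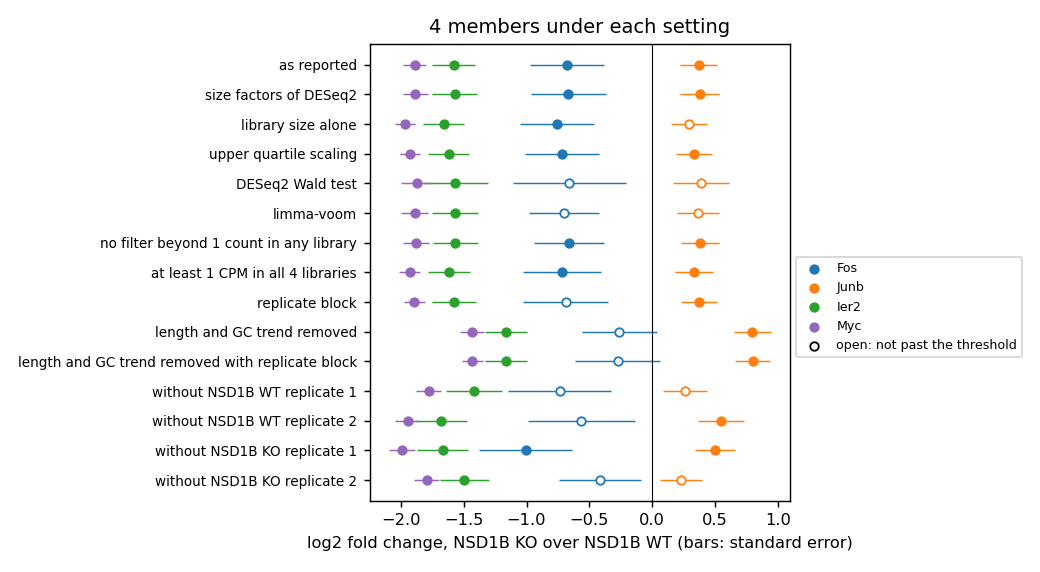
Log2 fold change of NSD1B KO over NSD1B WT with its SE for Fos, Junb, Ier2 and Myc, the 4 tested members counted more than 3 times in both genotypes, under the reported fit and each alternative; open points are not past the threshold. Myc lay between -1.99 and -1.43 and Ier2 between -1.68 and -1.16 over the alternatives, while Fos and Junb crossed the threshold in several of them.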

How the data were processed

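RNA of B220+ splenic B cells was sequenced in 4 libraries, 2 per genotype. The deposited counts are whole-number counts per gene that the authors made from 150 bp paired-end reads, mapped to mm10 with Bowtie2 per the labels and methods. They are neither normalized nor scaled by length. The counting program and strand setting were not given in the sources used here, and FPKM from Cufflinks, which the methods describe, was not used. Reads on no gene (44.3% to 44.6%), ambiguous (2.21% to 2.41%) and not unique (11.2% to 13.2%) were left out of library sizes. Depth was 6769118 to 7566834 counts on genes.

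Counts were scaled by TMM (factors 1.03, 1.03, 0.952 and 0.995 for NSD1B WT 1 and 2 and NSD1B KO 1 and 2), filtered by filterByExpr (minimum count 10, minimum total 15) and tested with the quasi-likelihood test of edgeR 4.0.16 in R 4.3.3, with Benjamini-Hochberg adjustment over all tested genes. All adjusted p-values come from this fit unless another tool is named. A gene was called where the adjusted p was under 0.05 and it changed more than 1.2-fold, the methods' limits, with their p taken as the adjusted one. Standard errors are the log2 fold change over the root of the F statistic. Genes at 0 in a genotype got a bound against 3 counts over its 2 libraries, genes with 1 to 3 counts a ratio with an exact 95% binomial interval. With 2 libraries against 2 an exact permutation test cannot reach 0.05, and none was made. The mean chi-square between libraries of a genotype was 3.02 and 3.90, where counting error gives about 1.

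Positions, exon lengths and transcripts are those of GENCODE M21 (GRCm38), matched without the version number for 55141 of 55401 identifiers (Junb, Ier2 and Myc differ in version). RefSeq promoters matched 6 of the 10 members, and not Egr1, Egr3, Ier2 or Myc. The members, lists and markers were chosen with earlier results of these data known, and lists are described by counts and medians without a set test. Genes were named by a fixed rule: the members, Nsd1, up to 4 called genes per list with the largest change among those averaging 3 or more in log2 CPM, list genes at 0 in a genotype with at least 50 counts in the other, the markers, and the 3 genes most like Fos that average 5 or more in log2 CPM. Genes of overlapping exons, genes named as not called or without a count, and those marked in the text fall outside it. Alternatives were DESeq2 size factors, library size alone, upper quartile scaling, DESeq2 1.42.0, limma-voom (limma 3.58.1), filters of 1 count in any library and of 1 CPM in all 4, each library left out, the replicate number as a block, a loess trend (span 0.5) with length and GC removed with and without the block, and other thresholds. The fit was tested on simulated data. Python 3.11.15 made the tables. Results for some genes that the rule names are not reported here.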

Additional observations from a re-analysis of the deposited data

How the results depend on the processing

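Myc, Ier2 and Nsd1 kept their direction and stayed past the threshold under every alternative. Jun, Egr3 and Nr4a1, with 0 or 1 count over NSD1B KO, had to differ wherever they were tested, so their calls say nothing of stability, and the filter of at least 1 CPM in all 4 libraries removed them by construction and left 3 members lower. With 1 library left out their fitted log2 fold changes ran from -9.83 to -6.57 (Nr4a1), -8.64 to -5.38 (Egr3) and -7.77 to -7.19 (Jun). These fitted values are not measured folds. The log2 fold change of Fos was -0.66 by DESeq2, -0.70 by limma-voom, -0.69 with the replicate block, -0.26 after removal of the trend with length and GC and -0.27 with that removal and the replicate block, none past the threshold, and -0.68 failed the stricter threshold of an adjusted p below 1e-05 and a log2 fold above 0.5. For Junb it was 0.29 with library size alone, 0.39 by DESeq2 and 0.37 by limma-voom, again not past the threshold, and 0.37 failed the stricter one, so that 0 members were higher under these 4 settings. Leaving out 1 library at a time gave -1.01 to -0.41 for Fos, 0.23 to 0.55 for Junb, -1.99 to -1.78 for Myc, -1.68 to -1.42 for Ier2 and 0 to 1 members higher. The filter of 1 CPM in all 4 libraries tested 8334 genes and called 5846, 2855 higher and 2991 lower, with 6 called among other AP-1 genes, 0 among other Egr, Nab and Nr4a genes and 15 among other early response genes. The stricter threshold left 5 called genes in the Myc network and 3198 higher and 3467 lower genes in all. The cause of these changes was not tested, apart from the smaller number of genes that the filter leaves.

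The replicate numbers are shared across genotypes, but the sources do not say that they mark a pair. The deviations of same-numbered libraries from their group means correlated at 0.06 over tested genes, and the replicate block changed the call of 1 member, Fos (adjusted p = 0.0537), with 4254 higher and 4706 lower genes against 4323 and 4795. At this depth Egr1 was not detected, Fosb lay close to the limit of 3 counts, and Jund, above that limit, had too few counts to be tested in the reported fit. With the filter of 1 count in any library 9 members were tested.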
